A study of Mus musculus with 16 samples.

Results

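ATP-binding cassette (ABC) transporter genes were described in polyadenylated RNA of mouse brown adipocytes across 2 plasmid conditions and 2 treatments. The members were the genes whose mouse symbol is Abc, a subfamily letter from a to g and a number, with or without a final letter, and 50 of the 54347 genes in the count table met this rule. All 50 are annotated as protein coding. Of these, 27 had enough counts to be tested, among 13150 tested genes in all.

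The wt1-SAM cells used here are immortalized preadipocytes of brown fat with stable expression of CRISPRa SAM. In that system an inactive Cas9 and guide-bound activators raise transcription of a targeted gene. Every culture was differentiated with 0.5 µM rosiglitazone, a PPARγ agonist, together with insulin, T3, dexamethasone, indomethacine and IBMX at induction, and was reverse transfected with 250 ng of plasmid on day 4. Cells received either the empty sgRNA vector (empty vector cells) or a pair of vectors whose guides target the long noncoding RNA gene *Gm15551* (sgRNA cells), and were harvested on day 7 either as unstimulated control cells or after 24 h with 1 µM isoproterenol, a β-adrenergic agonist. Replicate numbers 3, 4, 5 and 6 occurred once in each of these 4 groups, which gave 16 libraries from a single cell line. The labels do not say that the replicates were separate cultures, so p-values measure the spread between these samples, which may be in part technical.

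ABC transporters couple the binding and splitting of ATP to the movement of lipids, sterols, conjugated metabolites, drugs or peptides across membranes. In fat cells *Abca1* and *Abcg1* hand cholesterol and phospholipid to apolipoproteins and lipoprotein particles, most D members feed long fatty acids into peroxisomes, several B members sit in mitochondria and many C members export glutathione, glucuronide and nucleotide conjugates. Proteins of the E and F subfamilies lack membrane segments and act on ribosomes rather than as transporters.

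Total counts ranged from 9053521 to 16546187 per library. A ribosomal RNA gene, *CT010467.1*, took 29.0% ± 12.8 (SD, n = 4) and 36.8% ± 12.8 of counts in control and stimulated empty vector libraries, against 19.1% ± 1.11 and 21.1% ± 7.18 in the sgRNA libraries, so this share differed with the plasmid. The targeted gene *Gm15551* was higher in sgRNA cells by 2.37 (log2, SE 0.39, adjusted p = 0.0989, edgeR's quasi-likelihood test) and by 2.41 (SE 0.28, adjusted p = 0.00055) when replicate number was a block in the model, in 8 of 8 pairs. The summed level of 11 brown adipocyte markers ranged from 9312 to 21704 CPM (counts scaled to TMM-adjusted library sizes) over the 16 libraries, and isoproterenol raised *Ucp1* from means of 0.35 and 0.548 CPM to 6.42 and 9.35 CPM (adjusted p = 7.36e-06). *Fabp4*, which the study names as a common adipocyte marker, made up 85.4% to 91.9% of the marker sum. *Prdm16* had 5 to 29 counts per library, and *Dio2* had 1 count in stimulated sgRNA replicate 5 and 0 elsewhere. In bulk RNA, fewer cells that express a gene and less of its RNA per cell cannot be told apart.

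The promoter windows of *Abca5* and *Abcg2* are shown because these are the 2 members called higher for the averaged isoproterenol difference with replicate number as a block. Windows reach from 250 bases before to 50 bases after a RefSeq transcript start (300 bases, GRCm38.p6), and RefSeq lists 3 starts for *Abcg2*, which is why its windows are set side by side. Capitals mark matches on either strand to 8 motifs, namely the cAMP response element TGACGTCA, its core TGACG (which overlaps it), the GC box GGGCGG, the CCAAT box CCAAT, the TATA box TATAAA, the E-box CACGTG, the nuclear receptor core AGGTCA (a part of a full site) and the antioxidant response element TGACNNNGC.
Abca5, chr11:110337667-110337966, minus strand: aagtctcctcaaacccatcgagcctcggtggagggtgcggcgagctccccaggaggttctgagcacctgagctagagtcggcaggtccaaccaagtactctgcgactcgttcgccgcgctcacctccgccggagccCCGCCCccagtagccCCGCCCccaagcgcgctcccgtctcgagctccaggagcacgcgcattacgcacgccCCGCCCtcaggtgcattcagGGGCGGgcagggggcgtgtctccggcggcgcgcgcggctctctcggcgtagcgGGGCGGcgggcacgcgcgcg
Abcg2, chr6:58584283-58584582, plus strand: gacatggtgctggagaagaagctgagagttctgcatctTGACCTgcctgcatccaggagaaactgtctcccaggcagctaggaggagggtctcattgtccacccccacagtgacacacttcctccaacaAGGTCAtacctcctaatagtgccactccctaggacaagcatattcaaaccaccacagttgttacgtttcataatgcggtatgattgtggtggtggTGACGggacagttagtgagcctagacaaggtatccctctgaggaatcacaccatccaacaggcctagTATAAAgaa
Abcg2, chr6:58596422-58596721, plus strand: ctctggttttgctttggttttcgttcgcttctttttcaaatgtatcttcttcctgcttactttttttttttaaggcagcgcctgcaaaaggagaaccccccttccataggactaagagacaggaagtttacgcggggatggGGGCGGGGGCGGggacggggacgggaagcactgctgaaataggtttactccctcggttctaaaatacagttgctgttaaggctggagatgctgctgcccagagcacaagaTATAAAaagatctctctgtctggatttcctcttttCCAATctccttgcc
Abcg2, chr6:58640296-58640595, plus strand: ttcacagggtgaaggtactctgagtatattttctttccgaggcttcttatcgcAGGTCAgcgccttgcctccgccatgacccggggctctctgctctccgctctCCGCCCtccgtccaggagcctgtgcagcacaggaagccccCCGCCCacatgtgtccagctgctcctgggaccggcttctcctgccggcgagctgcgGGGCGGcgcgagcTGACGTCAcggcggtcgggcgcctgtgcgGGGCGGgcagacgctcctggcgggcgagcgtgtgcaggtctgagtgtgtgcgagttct

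The *Abca5* window held 5 GC boxes and no other motif of the list, and 35.7% of all 32851 windows held at least 1 GC box. The third *Abcg2* window held the full cAMP response element, starting 37 bases before the transcript start, along with 4 GC boxes and 1 nuclear receptor core. This element was in 1.79% of all windows and in 2 of the 45 windows of members, the other belonging to *Abce1*. The first *Abcg2* window held only the core of the cAMP response element (20.8% of all windows) beside 2 nuclear receptor cores (16.3%) and a TATA box (13.6%), and the second held 2 GC boxes, a CCAAT box (37.4%) and a TATA box. The TATA match began 41 bases after the transcript start in the first window and 1 base after it in the second. The CCAAT match of the second window began 36 bases after the start. A match is a description of letters, and the counts are summed over all transcripts of a gene, so they do not say which start was used. RefSeq windows were matched for 38 of the 50 members.

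The 27 tested members spanned levels from 0.127 CPM per kilobase of exon for *Abcc2*, a conjugate exporter best known from liver, to 43 for *Abce1*, which recycles ribosomes. *Abce1* ranged from 33.4 to 57.1 CPM per kilobase over the 16 libraries, and *Abcf2*, a cytosolic ATPase, from 32.1 to 43.6, with *Abce1* above *Abcf2* in 13 of 16 libraries. These 2 stood apart from the peroxisomal fatty acid transporter *Abcd3* (mean 18.7), the nucleotide conjugate exporter *Abcc5* (17) and the translation factor *Abcf1* (15.7), since the lowest library of *Abcf2* was above the highest of *Abcd3*. *Abcd3*, *Abcc5* and *Abcf1* overlapped in range, and over the whole order of 27 only 3 of 26 neighbouring pairs had ranges that did not overlap.

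**Figure D1:**
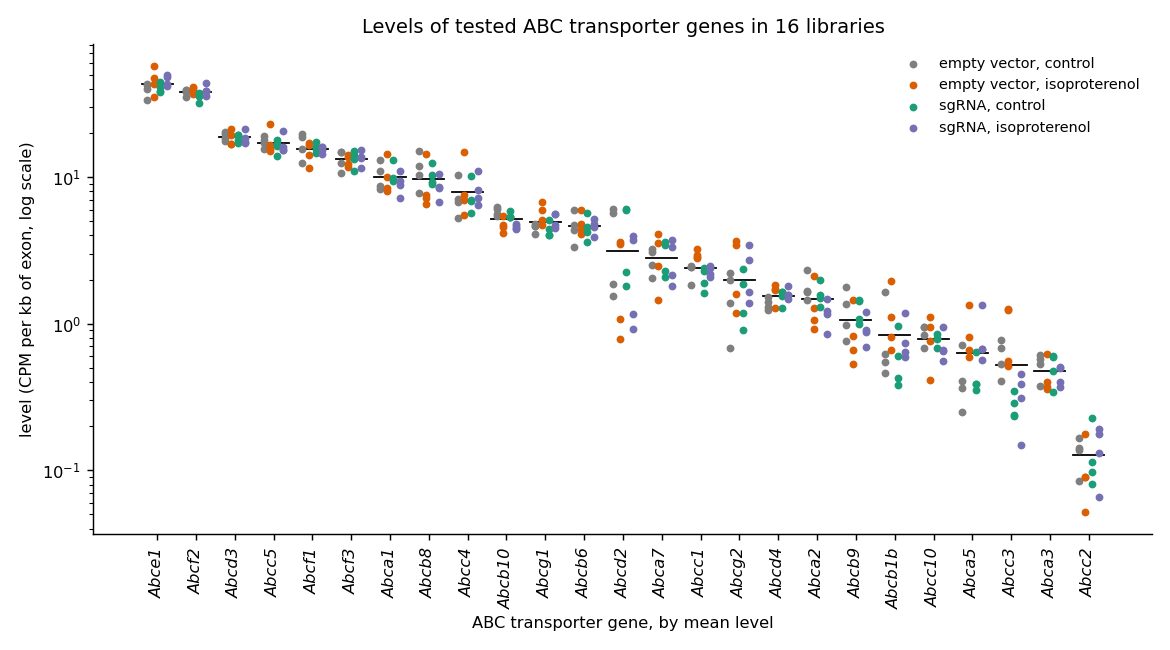
Level of tested ABC transporter genes in 16 libraries, in CPM per kilobase of exon on a log axis, coloured by group; the black line is the mean over all libraries. Most neighbours overlap, and the spread over libraries is wide for members such as *Abcd2*, whose levels run from 0.792 to 6.1.

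The subfamilies differed in how many members were measurable. All 4 D, the single E and all 3 F members were tested, against 5 of 16 A, 6 of 10 B, 6 of 10 C and 2 of 6 G members. *Abca14*, *Abca16* and *Abcg3* had 0 counts in every library, where a limit of 3 counts corresponds to 0.166 to 0.39 CPM. The other 20 untested members had between 1 and 60 counts over all 16 libraries and never more than 11 in 1 library. Together the 50 members took 0.171% ± 0.011 (SD, n = 4) of the counts outside *CT010467.1* in empty vector control cells and 0.176% ± 0.0177 in stimulated ones, with 0.173% ± 0.00694 and 0.174% ± 0.00906 in sgRNA cells, so the sum differed between groups by less than its spread.

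Of the sterol exporters, *Abca1* and *Abcg1* were expressed and the rest were close to 0. *Abcg4*, the close relative of *Abcg1*, had 2 counts in all, and *Abcg5* and *Abcg8*, the paired subunits of the sterol exporter of gut and liver, had 4 and 6. *Abca1* (chr4:53030787-53159895) had 90.7, 86.4, 135.6 and 114.7 CPM in empty vector control replicates 3 to 6 and 87.9, 83.5, 148.6 and 103.5 CPM after isoproterenol. In sgRNA cells it had 100.2, 96.9, 135.9 and 103 CPM in control and 91.4, 75, 114.1 and 97.4 CPM in stimulated libraries. Replicate 5 was the highest in each of the 4 groups, and all 4 groups overlapped.

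Isoproterenol moved *Abca1* by −0.11 (log2, SE 0.14, 95% interval −0.4 to 0.18, adjusted p = 0.754) and by −0.12 (SE 0.052, −0.23 to −0.01, adjusted p = 0.128) with the replicate block, lower in 7 of 8 pairs. The sgRNA difference was −0.07 (SE 0.14, 95% interval −0.35 to 0.22, adjusted p = 1) and −0.05 (SE 0.052, −0.16 to 0.06, adjusted p = 0.758) with the block. Neither difference of *Abca1* passed the test in either fit.

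*Abcg1* (chr17:31057675-31117988), which loads cholesterol onto high-density lipoprotein, had 33.7, 33.8, 35.1 and 29.7 CPM in empty vector control replicates 3 to 6 and 34.4, 43.9, 49.1 and 37.2 CPM after isoproterenol. In sgRNA cells the values were 29.5, 37.3, 32.3 and 29.5 CPM in control and 32.8, 34.5, 40.8 and 41 CPM in stimulated libraries. Stimulated libraries were above their controls in 7 of 8 pairs, with sgRNA replicate 4 as the exception, and the groups overlapped. The averaged isoproterenol difference was 0.26 (SE 0.087, adjusted p = 0.103) without and 0.26 (SE 0.069, adjusted p = 0.0142) with the block, so it passed the p threshold in the blocked fit but stayed under the fold bound of 0.5 that a called gene had to exceed. With the block and without replicate 5 or replicate 6 its adjusted p was 0.0992 and 0.0939. The sgRNA difference was −0.09 (SE 0.087, adjusted p = 1).

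*Abcc3*, an exporter of glucuronide conjugates and bile acids, was the member with the largest difference between plasmids. It lies at chr11:94343295-94392997 on the minus strand. It was a low gene, with 12 to 127 counts per library. In empty vector cells it had 3.91, 4.4, 2.34 and 3.01 CPM in control replicates 3 to 6 and 7.21, 7.03, 2.93 and 3.2 CPM after isoproterenol. In sgRNA cells it had 1.33, 1.98, 1.65 and 1.37 CPM in control and 2.22, 2.6, 1.76 and 0.847 CPM in stimulated libraries. Within each treatment the lowest empty vector library was above the highest sgRNA library, and over both treatments the ranges overlapped only between stimulated sgRNA replicate 4 at 2.6 CPM and empty vector control replicate 5 at 2.34 CPM. The share of all tested genes with groups separated in this way was not counted.

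The question of whether the guide plasmids changed ABC transporter RNA was put to a test over all 16 libraries, where a call required an adjusted p below 0.05 together with a log2 fold change beyond 0.5 in either direction. Averaged over treatments, *Abcc3* differed by −1.29 (SE 0.26, 95% interval −1.83 to −0.74, adjusted p = 0.216, edgeR's quasi-likelihood test, p-values adjusted by Benjamini and Hochberg's method over 13150 genes), so 0 of 27 members were called, as were 0% of all genes, with an unadjusted p under 0.05 in 2 members and 437 genes. DESeq2 called 1 member, *Abcc3* (adjusted p = 0.00399), and 0.076% of all genes. Without a filter on low counts edgeR called the same 1 of 47 members (adjusted p = 0.0412) and 0.0287% of 34821 genes. Libraries with the same replicate number deviated together, and with replicate number as a block *Abcc3* fell by 1.26 (SE 0.18, 95% interval −1.64 to −0.89, adjusted p = 0.00228), in 8 of 8 pairs. It was then 1 of 27 members called, against 0.266% of all genes and 0.221% called lower. No group had a guide for another gene, so targeting of *Gm15551* and the presence of any guide cannot be told apart. The study reports that other sgRNAs also changed the inflammatory markers *Lcn2*, *Saa3* and *Hp* in wt1-SAM cells, and it reads these as an artefact of the model.

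Within single treatments the blocked difference of *Abcc3* was −1.09 (SE 0.25, adjusted p = 0.235) in control cells, where 0 members and 0.0304% of genes were called, and −1.44 (SE 0.24, adjusted p = 0.0255) in stimulated cells, where *Abcc3* was again the 1 member called, against 0.122% of genes. Without the block no member and 0% of genes were called in either treatment. The difference between the treatments, the interaction, was −0.35 (SE 0.35, 95% interval −1.1 to 0.4, adjusted p = 1), and 0 members and 0% of genes were called for it in either fit, with an unadjusted p under 0.05 in 0 members and in 52 and 199 genes. The smallest of the 8 paired differences (log2 CPM) was −0.47 in control replicate 5, and the largest was −1.74 in stimulated replicate 6.

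The *Abcc3* call needed replicate 4, since the blocked fit without its 4 libraries did not call it (−1.24, adjusted p = 0.0752), whereas the fits without replicate 3, 5 or 6 did (adjusted p = 0.0416, 0.00436 and 0.0307). The share of *CT010467.1*, which also differed with the plasmid, was entered as a covariate. The difference was then −1.69 (adjusted p = 0.0482, with 0.0304% of genes called) without and −1.49 (adjusted p = 0.0264, with 0.122% called) with the block. Within stimulated cells alone, the blocked fit with the covariate no longer called *Abcc3*, against 0.038% of genes called. This lost call does not give the size of the difference there. The call within stimulated cells was also lost from the blocked fit without replicate 3, 4 or 6, and held without replicate 5. Of 4 tested preadipocyte markers, 0 were called for the plasmid without the block and 1, *Ly6a*, with it. The summed level of all 8 listed markers was 27.2, 30, 24.9 and 109.3 CPM in empty vector control replicates 3 to 6 against 19.5, 24.9, 17.2 and 69.8 CPM in sgRNA control replicates. After isoproterenol it was 53.1, 70.2, 33.1 and 126.7 CPM against 29.5, 48.1, 24 and 97.5 CPM. The sgRNA library had the lower sum in 8 of 8 pairs, although the groups overlapped. *Ly6a* made up 16.1% to 84.9% of the sum, and without it the sgRNA sum was lower in 5 of 8 pairs. With the block *Ly6a* fell by 0.74 (adjusted p = 0.00491), and *Cidea*, a lipid droplet protein and the 1 brown adipocyte marker called of 10 tested, rose by 1.05 (adjusted p = 0.0348). Their part in the *Abcc3* result was not tested.

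No other member was called for the plasmid. The median averaged sgRNA difference of the 27 members was −0.04, against −0.01 for all tested genes, and 19 of 27 members were negative, as were 53% of all tested genes. Chosen after the values were seen, *Abcc1*, which exports glutathione conjugates, differed by −0.27 (SE 0.089, adjusted p = 1, and adjusted p = 0.078 with the block), lower in 8 of 8 pairs. In stimulated cells *Abcc1* had 48.8, 44.4, 43.1 and 42.6 CPM with the empty vector and 33.2, 36.3, 31.3 and 37.4 CPM with guides, 2 groups that did not overlap. Control cells had 37.4, 37, 27.7 and 37.1 CPM with the empty vector and 34.4, 36.3, 24.6 and 28.8 CPM with guides, which overlapped. With the empty vector, every stimulated library was also above every control library. With guides the stimulated and control libraries overlapped, at 31.3 to 37.4 and 24.6 to 36.3 CPM. The interaction was not called for *Abcc1* in either fit. How many of all tested genes had groups that did not overlap was not counted. *Abcb1b*, a drug exporter whose counts are uncertain, since reads it may share with its paralog *Abcb1a* were not measured, differed by −0.43 with the block (SE 0.11, adjusted p = 0.105).

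**Figure D2:**
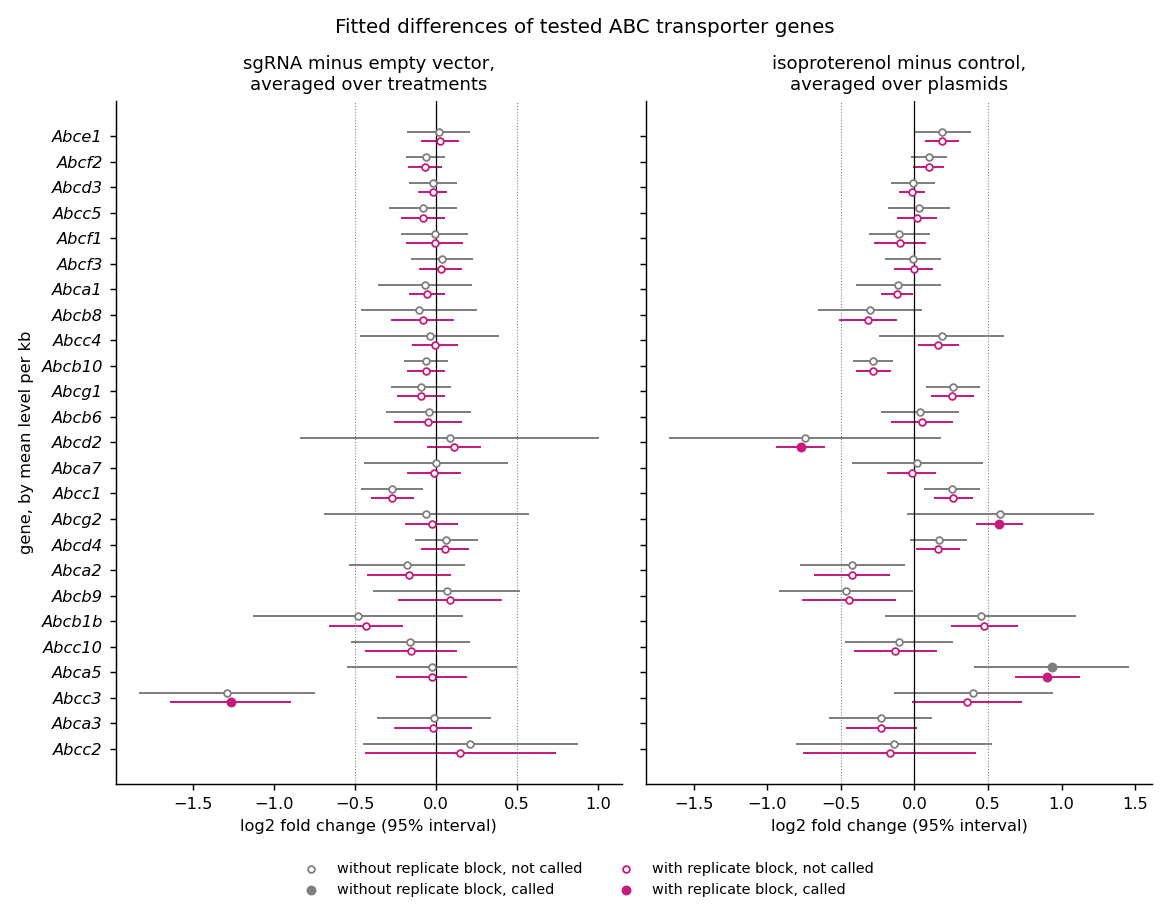
Log2 fold change of tested members for the averaged sgRNA difference (left) and the averaged isoproterenol difference (right), with bars for the 95% interval; grey is the fit without and pink the fit with replicate number as a block, and filled points are called. *Abcc3* is the 1 filled point on the left, and *Abca5*, *Abcg2* and *Abcd2* are filled on the right.

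Isoproterenol, the stimulus for thermogenesis in these cells, was tested over the same 27 members. *Abca5* and *Abcg2* were higher and *Abcd2* was lower in stimulated libraries in 8 of 8 pairs each. Without the block 1 of 27 members, *Abca5*, was called (higher), against 2.65% of all genes, of which 1.33% were higher and 1.32% lower. With the block 3 of 27 were called, 2 higher and 1 lower, against 5.7% of all genes, 3.09% higher and 2.61% lower. The median over the 27 members was 0.02 without the block, against 0.0047 for all tested genes, and −0.0049 with it, against 0.0028.

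*Abca5*, a lysosomal lipid transporter (chr11:110269369-110337716, minus strand), had 4.63, 4.14, 2.86 and 8.2 CPM in empty vector control replicates 3 to 6 and 6.83, 7.53, 9.29 and 15.4 CPM after isoproterenol. In sgRNA cells it had 4.41, 4.41, 4.04 and 7.3 CPM in control and 6.49, 7.64, 7.69 and 15.5 CPM in stimulated libraries. Replicate 6 was high in every group, so the groups overlapped although the stimulated library was the higher one in each pair. *Abca5* rose by 0.93 (log2, SE 0.25, 95% interval 0.41 to 1.46, adjusted p = 0.043) without and 0.9 (SE 0.1, 0.68 to 1.12, adjusted p = 1.44e-05) with the block. Without the block the call was lost when replicate 3, 4 or 5 was left out (adjusted p = 0.193, 0.187 and 0.167), and with the block it held in each such fit. The sgRNA difference of *Abca5* was −0.02 in both fits (adjusted p = 1 and 0.96).

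*Abcg2*, an exporter of urate, porphyrins and drugs (chr6:58584523-58695676, plus strand), had 16.3, 18.1, 5.58 and 11.2 CPM in empty vector control replicates 3 to 6 and 28, 29.7, 9.67 and 13 CPM after isoproterenol. In sgRNA cells it had 15.2, 19.4, 7.33 and 9.73 CPM in control and 22.3, 27.9, 11.3 and 13.3 CPM in stimulated libraries. Replicates 3 and 4 were above replicates 5 and 6 in each group, with means of 20.4, 23.8, 8.47 and 11.8 CPM for replicates 3 to 6. The isoproterenol difference of *Abcg2* was 0.58 (SE 0.3, adjusted p = 0.33) without the block, which did not pass. With the block *Abcg2* rose by 0.58 (SE 0.077, 95% interval 0.42 to 0.74, adjusted p = 5.97e-05), and its sgRNA difference was −0.02 (SE 0.077, adjusted p = 0.946).

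*Abcd2* carries very long and polyunsaturated acyl-CoA into peroxisomes and is responsive to PPAR agonists (chr15:91145871-91191799). It had 33.8, 36.3, 9.22 and 11.1 CPM in empty vector control replicates 3 to 6 and 21.5, 20.9, 4.71 and 6.39 CPM after isoproterenol. In sgRNA cells it had 35.9, 35.5, 13.4 and 10.8 CPM in control and 22.2, 23.5, 6.97 and 5.44 CPM in stimulated libraries. Replicates 3 and 4, at means of 28.3 and 29 CPM, again stood above replicates 5 and 6 at 8.57 and 8.43 CPM, a gap larger than that between the treatments. *Abcd2* differed by −0.74 (SE 0.44, adjusted p = 0.413) without the block and fell by 0.77 (SE 0.078, 95% interval −0.94 to −0.6, adjusted p = 4.06e-06) with it.

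**Figure D3:**
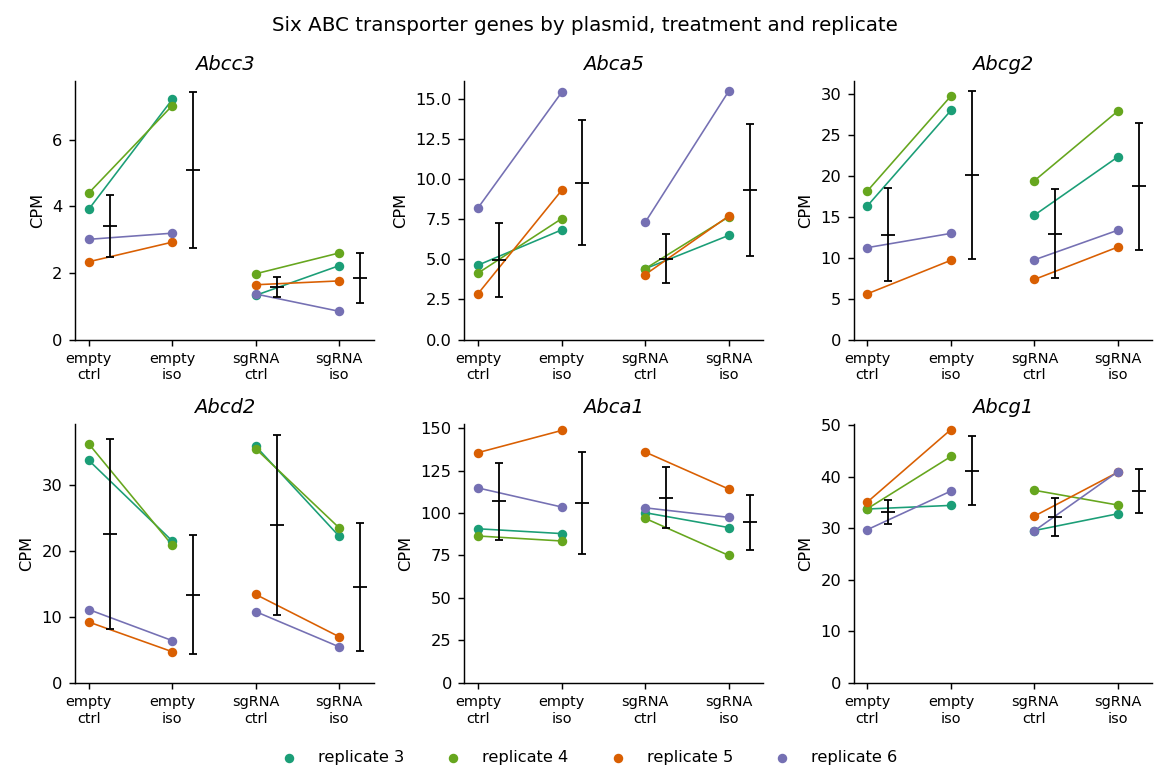
CPM of *Abcc3*, *Abca5*, *Abcg2*, *Abcd2*, *Abca1* and *Abcg1* in the 4 groups, with 1 point per library, lines joining control to stimulated libraries of the same plasmid and replicate number, and black marks for mean ± SD (n = 4). *Abcc3* is lower in both sgRNA groups, and the lines of *Abca5* and *Abcg2* all rise while those of *Abcd2* all fall.

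The same 3 members were called with the block in empty vector cells, against 4.47% of genes, and in sgRNA cells, against 3.9%. Without the block no member was called in either arm, against 0.829% and 0.7% of genes. The isoproterenol differences in empty vector and sgRNA cells were 0.95 (SE 0.15) and 0.86 (SE 0.14) for *Abca5*, 0.62 (SE 0.11) and 0.54 (SE 0.11) for *Abcg2*, and −0.77 (SE 0.11) and −0.77 (SE 0.11) for *Abcd2*, all with the block. The interaction was −0.1 (SE 0.21), −0.08 (SE 0.15) and −0.01 (SE 0.16), and none passed the test.

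**Figure D4:**
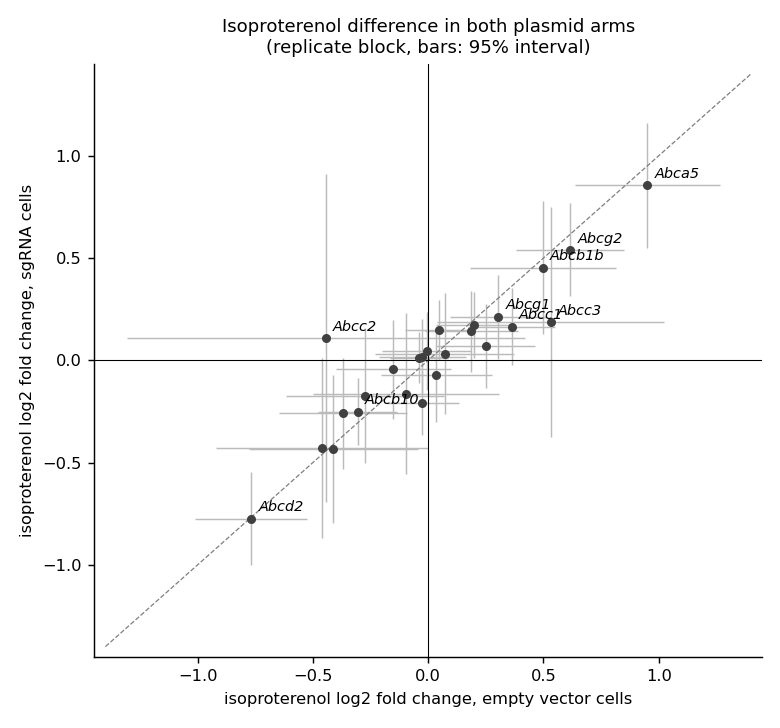
Isoproterenol log2 fold change of tested members in empty vector cells (x axis) and sgRNA cells (y axis), from the blocked fit, with 95% intervals and a dashed line of equality. *Abca5* at 0.95 and 0.86 and *Abcd2* at −0.77 and −0.77 mark the ends of the range.

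The joint test of any difference between the 4 group means, at an adjusted p under 0.001, passed 0 of 27 members without the block, against 0.297% of genes, and 4 of 27 with it, against 3.22%. Those 4 were *Abcc3*, *Abca5*, *Abcg2* and *Abcd2*.

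Smaller isoproterenol differences passed the p threshold but not the fold bound. Chosen after the values were seen, *Abcb10*, a mitochondrial inner membrane transporter that serves heme formation, was among them. With no fold bound and no block 2 of 27 members, *Abca5* and *Abcb10*, passed, against 4.49% of all genes. An unadjusted p under 0.05 (edgeR's quasi-likelihood test) was common, with 7 members and 2330 genes of 13150 without the block. With the block 15 members and 4399 genes reached it. *Abcb10* had 25.9, 24.3, 26.7 and 23.6 CPM in empty vector control and 18, 20.3, 23.3 and 19.6 CPM in stimulated empty vector replicates 3 to 6, and 25.4, 23, 23.1 and 23.1 against 20.8, 19.5, 19.1 and 20.1 CPM in sgRNA cells. The groups did not overlap within either plasmid, but the share of all tested genes with such a separation was not counted. *Abcb10* fell by 0.28 (SE 0.063, adjusted p = 0.0175, and adjusted p = 0.00216 with the block).

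Among the other members with the same direction in 8 of 8 pairs, *Abca2*, *Abcb8* and *Abcb9* were lower after isoproterenol, by −0.42, −0.31 and −0.44 with the block (adjusted p = 0.0209, 0.0224 and 0.0457). *Abcb1b* and *Abce1* were higher by 0.48 and 0.19 (adjusted p = 0.0049 and 0.0241). None of these members passed the p threshold without the block. Isoproterenol moved *Abcc3* by 0.4 without and 0.36 with the block, which did not pass in either fit (adjusted p = 0.461 and 0.167).

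Replicate number, which the titles give and the study's text does not explain, went with much of the variation of many members, as of all genes. It accounted for a median of 44.6% of the variance of log2 CPM over the tested members and 46.8% over all tested genes. These are shares of raw sums of squares, so each factor takes some part even without an effect. The share was 88.8% for *Abca7*, a relative of *Abca1*, and 88.3% for *Abcc4*, an exporter of cyclic nucleotides and prostaglandins, with 82.9% for *Abca1* itself. *Abcc4* had 74.2 CPM on average in replicate 5 against 36.6 to 46.8 CPM in the other replicates. Plasmid took 60.1% of the variance of *Abcc3* and treatment took 70.7% of that of *Abcb10* and 49.8% of that of *Abca5*.

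**Figure D5:**
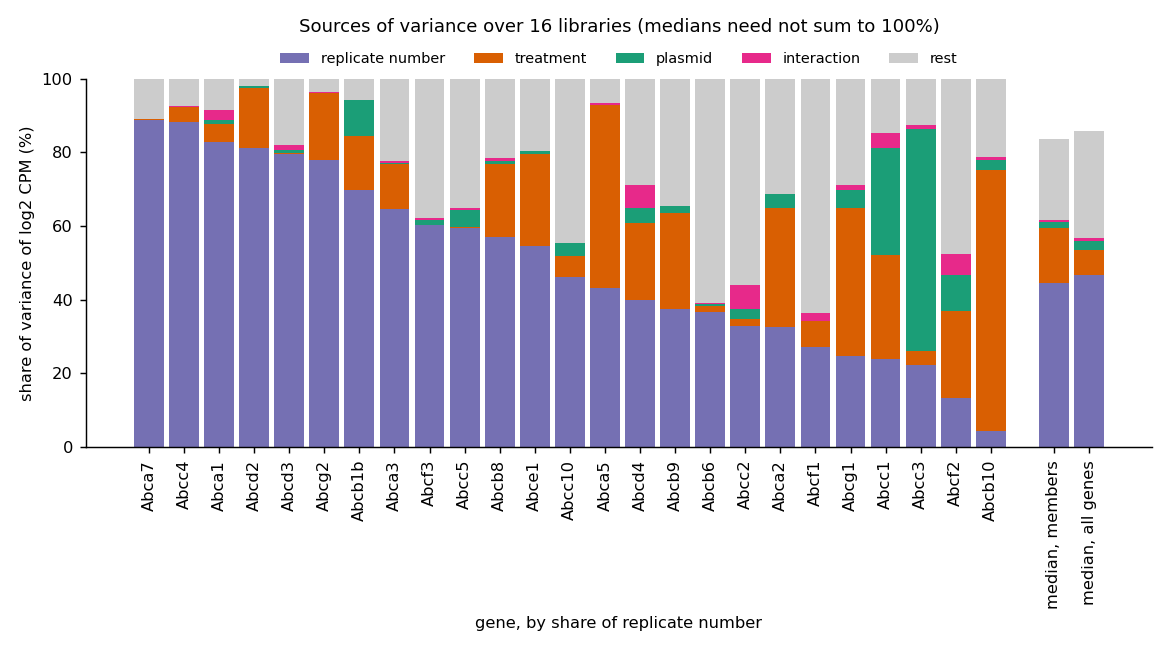
Share of the variance of log2 CPM over 16 libraries taken by replicate number, treatment, plasmid, their interaction and the rest, for tested members in order of the share of replicate number, with the medians over members and over all genes at the right. *Abcc3* is the member in which plasmid takes the most.

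The partners of these transporters were described as lists, whose counts stand beside the 2.65% of all genes called for isoproterenol without the block and the 5.7% called with it. Of 26 genes of sterol efflux, 25 were tested, and isoproterenol moved 1 up and 2 down without the block and 2 up and 3 down with it. *Lipa*, the lysosomal acid lipase that frees cholesterol from its esters, rose by 0.74 (SE 0.078, adjusted p = 2.86e-05), and *Nceh1*, a neutral cholesteryl ester hydrolase, rose by 0.65 with the block (adjusted p = 0.0137). *Scarb1*, the receptor for high-density lipoprotein, fell by 0.59 (SE 0.082, adjusted p = 0.000571), *Apoa1* fell by 1.4 (SE 0.38, adjusted p = 0.0453) from levels near 1 CPM, and *Apoe* fell by 0.64 with the block (adjusted p = 0.0299). The median of this list was −0.18, against 0.0047 for all genes, while *Abca1* and *Abcg1* were not called.

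Of 29 genes of conjugation and organic anion transport, partners of the C subfamily and *Abcg2*, 20 were tested, with 2 up and 1 down without the block (2.65% of all genes called) and 4 up and 1 down with it (5.7%). *Gclc*, which limits glutathione synthesis, rose by 0.86 (SE 0.12, adjusted p = 0.000653), *Nqo1*, a quinone reductase, rose by 0.58 (SE 0.15, adjusted p = 0.0368) in 7 of 8 pairs, and the sulphotransferase *Sult1a1* fell by 1.89 (SE 0.33, adjusted p = 0.00292). The prostaglandin transporter *Slco2a1* and the prostaglandin E synthase *Ptges* rose by 0.81 and 0.52 with the block (adjusted p = 0.0434 and 0.00109).

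Of 18 tested peroxisomal partners of the D subfamily, only *Pex16*, which builds peroxisomal membrane, was called, and it fell by 0.62 (SE 0.15, adjusted p = 0.0212). Of 21 mitochondrial genes of heme and iron-sulphur formation, only *Alad*, an early enzyme of heme synthesis, was called, and it fell by 0.57 (SE 0.14, adjusted p = 0.0346). Each of these lists gave the same count of 1 with the block, against 5.7% of all genes, so these counts are near the background. None of the 11 tested ribosome partners of *Abce1* and the F subfamily was called in either fit, with a median of 0.12. *Kcnj8* and *Kcnj11*, the channel pores that *Abcc8* and *Abcc9* regulate, had 0 counts in every library. For the averaged sgRNA difference, 0 genes of these 6 lists were called in either fit.

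The macrophage markers were compared because macrophages express *Abca1* and *Abcg1*. Of 7 such markers 2 were tested, and both rose with isoproterenol, *Cd68* by 0.91 and *Cd14* by 0.82 (adjusted p = 0.00518 and 0.00384). The summed level of the list was 10.6 to 17.3 CPM in control and 19.2 to 27.9 CPM in stimulated empty vector libraries, and 9.06 to 15.8 and 17.5 to 26.5 CPM in sgRNA libraries. This sum was higher after isoproterenol and lower with guides in 8 of 8 pairs each. *Cd68* made up 69.4% to 84.1% of it, and without *Cd68* the counts were 8 and 6 of 8 pairs. The defining markers were near 0, since *Adgre1* had 1 count in all and *Csf1r* and *Ptprc* had at most 5 and 2 counts in a library. The summed level of 4 endothelial markers was 1.42 to 3.15 CPM over all libraries. Of 10 tested brown adipocyte markers, isoproterenol moved 2 up (*Ucp1* and *Ppargc1a*) and 2 down (*Adipoq* and *Lipe*) without the block, and 3 up (*Cidea* added) and 3 down (*Plin1* added) with it. *Adipoq*, the adipocyte hormone adiponectin, was at 774 ± 194 CPM (SD, n = 4) with the empty vector and 790 ± 161 CPM with guides in control cells, and at 340 ± 106 and 414 ± 119 CPM after isoproterenol, while *Ppargc1a*, a coactivator of mitochondrial genes, rose by 0.71 (adjusted p = 0.0128). Of the 4 tested preadipocyte markers 0 were called without the block and 1, *Ly6a*, with it, which rose by 1.09 (adjusted p = 4.92e-06). The summed preadipocyte markers were higher after isoproterenol in 8 of 8 pairs, and in 6 of 8 without *Ly6a*. The summed brown adipocyte markers, of which *Fabp4* made up 85.4% to 91.9%, were lower in 8 of 8 pairs with and without *Fabp4*, while *Ucp1*, *Ppargc1a*, *Cidea* and *Elovl3* were each higher in 8 of 8. The part of these markers in the differences of the members was not tested.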

How the data were processed

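Per the labels and the study's methods, paired-end libraries of polyadenylated RNA were filtered with cutadapt, and the authors deposited estimated counts per gene from salmon on the GRCm38 GENCODE transcriptome, as whole numbers and not normalized. Software versions and the use of strand are not given in the sources used here, so counts of paralogs and overlapping genes are uncertain. A row without a gene name was not found, and 0 columns of sample values were left unused.

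Groups came from the sample titles. Tests used R 4.3.3 and edgeR 4.0.16 on these counts: filterByExpr (minimum count 10, minimum total 15), TMM, glmQLFit with 4 group means over all 16 libraries and two-sided glmQLFTest. P-values were adjusted by the Benjamini-Hochberg method over 13150 genes, and a call required an adjusted p below 0.05 together with a log2 fold change beyond 0.5 in either direction. CPM used TMM-scaled library sizes, log2 CPM a prior count of 2, and levels per kilobase the exon length of GENCODE M21. SEs and 95% intervals come from the fit's F statistic and degrees of freedom. The limit of 3 counts covers counting error only, as reads are not independent molecules.

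Same-numbered libraries deviated together from their group means (24 correlations, 0.22 to 0.61, median 0.41, against −0.51 to 0.52, median −0.21, over 72 pairs of different number and group), so the numbers were taken to pair the libraries and the fit with replicate number as a block is given beside results that it changes. Deviations cancel within each group, so positive correlations at the same number push those at different numbers down. The gap between the medians is thus in part built in. DESeq2 1.42.0, RLE factors, no count filter, removal or adjustment for the ribosomal RNA gene, and leaving out replicates were alternatives. Scripts were checked on simulated data.

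The members, gene lists and tests were chosen with earlier results of these data known. Counts and medians cover all tested members, but some members are not reported by name or drawn here. Named genes were *Abcc3*, the sterol exporters, members called in any contrast, the 5 with the highest level per kilobase, those at 0, and at most 6 called genes per partner list. Other members named in the text were chosen after their values were seen.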

Additional observations from a re-analysis of the deposited data

Results flagged for a closer look

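In 4 of the 108 groups of 4 libraries formed by the tested members, 1 library lay far from the other 3 on the log2 CPM scale. Chance alone gives about 1 in 20 such groups. *Abca5* in sgRNA control replicate 6 was at 2.90, above the others at 2.07 to 2.19, and replicate 6 was also the highest library of *Abca5* in the other groups. *Abcb10* in sgRNA control replicate 3 was at 4.68, above 4.53 to 4.54. *Abcc1* in empty vector control replicate 5 was at 4.80, below 5.22 to 5.23. *Abcc5* in stimulated sgRNA replicate 5 was at 7.77, above 7.36 to 7.42.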

How the results depend on the processing

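Called members for the averaged sgRNA difference numbered 0, and 1 (*Abcc3*) under DESeq2, without a count filter, with the ribosomal RNA share as covariate, with the replicate block, with both, and with the block without replicate 3, 5 or 6, where 0.0287% to 0.266% of all genes were called. Leaving out replicates or single libraries without the block gave 0 to 0. In stimulated cells the block gave 1, also without replicate 5 (0.0907% of genes), and 0 without replicate 3, 4 or 6. For the averaged isoproterenol difference the count of 1 became 2 with no fold bound (*Abcb10* added, 4.49% of genes), 3 with the block, 6 with block and covariate (*Abca2*, *Abcb9* and, higher, *Abcb1b* added, 5.63% of genes), 3 with the block without replicate 3, 4 or 5 and 4 without replicate 6 (*Abcb1b* added), with 4.55% to 5.67% of genes in these fits, and 0 to 2 when replicates or libraries were left out without the block (0.9% to 3.46% of genes). It was 0 without replicate 3, 4 or 5, without replicate 3, 4 or 5 of either control group, after dropping replicate 6 of isoproterenol-treated empty vector cells or replicate 4, 5 or 6 of isoproterenol-treated sgRNA cells, and 2 without stimulated empty vector replicate 5 (*Abca2* added). With the covariate alone *Abca2* was called in place of *Abca5* (adjusted p = 0.0516). In empty vector cells the block gave 3, the block with covariate 4 (4.47% of genes), the block without replicate 4 gave 2 and without replicate 3, 5 or 6 gave 3 (3.13% to 4.17%), and leave-one-out without the block gave 0 to 1. In sgRNA cells the block gave 3, also with the covariate, and 4, 2, 3 and 2 without replicate 3, 4, 5 and 6 (2.67% to 3.2% of genes). The joint test passed 1 member in DESeq2 (1.61% of genes), 4 with the block and 3 with block and covariate (2.85%). The interaction stayed at 0 called members under every alternative run.

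The sign of some differences that never passed the test reversed. For the sgRNA difference, *Abca1* was 0.25 with the covariate and 0.036 with block and covariate, *Abcd2* was −0.62 and −0.039, *Abca5* was 0.0081 without a filter and 0.0011 and 0.0088 with the block without replicates 3 and 6, and *Abcg2* was 0.047 and 0.0045 there. For the interaction, *Abcd2* was −0.48 with the covariate, −0.0059 with the block, −0.095 with both and −0.097 with the block without replicate 4, *Abca5* was 0.047 with the block without replicate 5 and *Abcg1* 0.049 without replicate 4. Leaving out replicates or single libraries without the block gave sgRNA differences from −0.12 to 0.041 for *Abca1*, −0.20 to 0.14 for *Abca5*, −0.077 to 0.26 for *Abcd2*, −0.18 to 0.075 for *Abcg2*, and interactions from −0.33 to 0.014 for *Abca1*, −0.45 to 0.22 for *Abca5*, −0.30 to 0.38 for *Abcd2*, −0.20 to 0.033 for *Abcg1*, −0.36 to 0.18 for *Abcg2*. The cause of these shifts was not tested. RLE factors and removal of the ribosomal RNA gene changed no count of called members. Depth limits the low members, such as *Abcc2* at 6 to 26 and *Abcc3* at 12 to 127 counts per library.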

Other observations

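The 2 paralogous drug exporters of the B subfamily were measured at very different levels. *Abcb1b* had 1305 counts over the 16 libraries and *Abcb1a* had 59, with at most 11 in a library. *Abcb1b* stood highest in replicate 6 of each group, at 13.1 and 15.6 CPM in control and stimulated empty vector cells and 7.75 and 9.53 CPM in sgRNA cells, and replicate number took 69.8% of its variance. *Abcb6*, a porphyrin transporter, had a mean of 4.64 CPM per kilobase and an isoproterenol difference of 0.04 (SE 0.12, adjusted p = 0.917).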
